A study of Mus musculus with 60 samples.

Results

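The MYC and ribosome biogenesis genes are 40 transcripts: the transcription factor gene Myc and 39 genes that serve cell growth and the making of ribosomes. They were taken by symbol from a list of members written for this work, and all 40 had a value in each of 13 comparisons. The table lists 41018 genes, of which 24905 had values throughout. None of the 40 passed an FDR p under 0.05 in any comparison, so the values below describe directions and sizes with their errors.

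The samples were organoids from mouse duodenum, which is the first stretch of the small intestine, and 3′ mRNA sequencing read the ends of their polyadenylated transcripts. In the degron arm, organoids labelled WT dTAG, HOM CDK2-dTAG or HOM CDK5-dTAG received DMSO, the solvent control, or 250 nM dTAG-13 for 6 or 24 h (12 groups, 36 samples). dTAG-13 is a small molecule that brings a dTAG fusion protein to a ubiquitin ligase for degradation, and all 3 genotypes received it, the wild type included. In the knockout arm, organoids labelled WT cKO or HOM CDK2 cKO received DMSO or 1 uM 4-hydroxytamoxifen (4-OHT), the usual switch of a tamoxifen-dependent Cre, for 24 or 48 h (8 groups, 24 samples). Each of the 20 groups had 3 replicates. The labels used here do not say whether replicates were separate cultures or animals, which promoter drives a Cre, whether the wild type carries one, or the strain and age of the mice. The p-values therefore measure the spread between these samples, which may be technical. The table holds comparisons and no levels, so neither the depth of a sample nor the duodenal identity of the organoids could be checked, and in bulk RNA fewer cells of a type and less RNA per cell cannot be told apart.

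MYC is a transcription factor that, paired with MAX, binds the E-box CACGTG and raises the transcription of genes for growth. Making ribosomes is its best known output: RNA polymerase I transcribes ribosomal RNA in the nucleolus, small nucleolar ribonucleoproteins modify it, and large assembly complexes fold and cut it into the 40S and 60S subunits. In the intestine, MYC acts downstream of Wnt signalling in the dividing crypt cells, and differentiating cells make fewer ribosomes. The members are described by their place in this sequence, from MYC and polyamine synthesis through RNA polymerase I and the nucleolar proteins to the subunits.

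Among the 34 members with a promoter window in the RefSeq table for GRCm38.p6 (250 bases before to 50 bases after the start), 7 held CACGTG, which reads the same on both strands. That is 20.6% of the members, against 8.09% of 27025 genes, 12.7% of 7479 well measured genes and 27.9% of 154 other genes of the pathway. The windows around these 7 E-boxes are shown because they hold the letters that MYC and MAX are known to bind. Bases outside the promoter window were not searched, so a member without a match may hold an E-box elsewhere. Capitals mark the E-box, and each line runs 5′ to 3′ on the strand of its gene, with up to 12 bases on either side as far as the window reaches.
Ltv1, chr10:13193092-13193121, minus strand: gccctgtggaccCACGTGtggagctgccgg
Mybbp1a, chr11:72441355-72441376, plus strand: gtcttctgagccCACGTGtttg
Nop2, chr6:125131811-125131840, plus strand: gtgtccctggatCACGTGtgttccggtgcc
Pes1, chr11:3963965-3963994, plus strand: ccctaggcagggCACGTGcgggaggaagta
Tsr1, chr11:74898092-74898121, plus strand: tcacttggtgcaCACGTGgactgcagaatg
Utp20, chr10:88826765-88826789, minus strand: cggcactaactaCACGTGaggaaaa
Wdr43, chr17:71616220-71616249, plus strand: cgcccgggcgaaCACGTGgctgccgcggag
The E-box of Nop2 begins 60 bases before the start. Those of the other members begin after it, from 3 bases in Pes1 to 41 bases in Mybbp1a. A match is a description of the sequence and shows no binding. Rrp12, Bop1, Srm, Npm1, Myc and Fbl were not matched in the promoter table.

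A standard error was derived for each value from its log2 fold change and its p-value. Over the 13 comparisons the median standard error of a member ran from 0.14, as in Npm1, to 0.40 in Utp20, with 0.19 in the middle, and the typical half-width of a 95% interval was 0.37 to 0.42. All 40 members are well measured, a term used here for the 9526 genes (38.2%) whose median standard error did not exceed 0.5. The well measured genes are the reference below for medians, directions and ranks, because between 20.3% and 27.3% of all genes share 1 identical log2 fold change within a comparison. The median of the well measured genes was never lower than -0.02 or higher than 0.01. Counts of p-values in a comparison are set against all genes, a lower mark. Over the 13 comparisons 1.73% of all values and 2.73% of well measured values had an unadjusted p under 0.05.

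**Figure D1:**
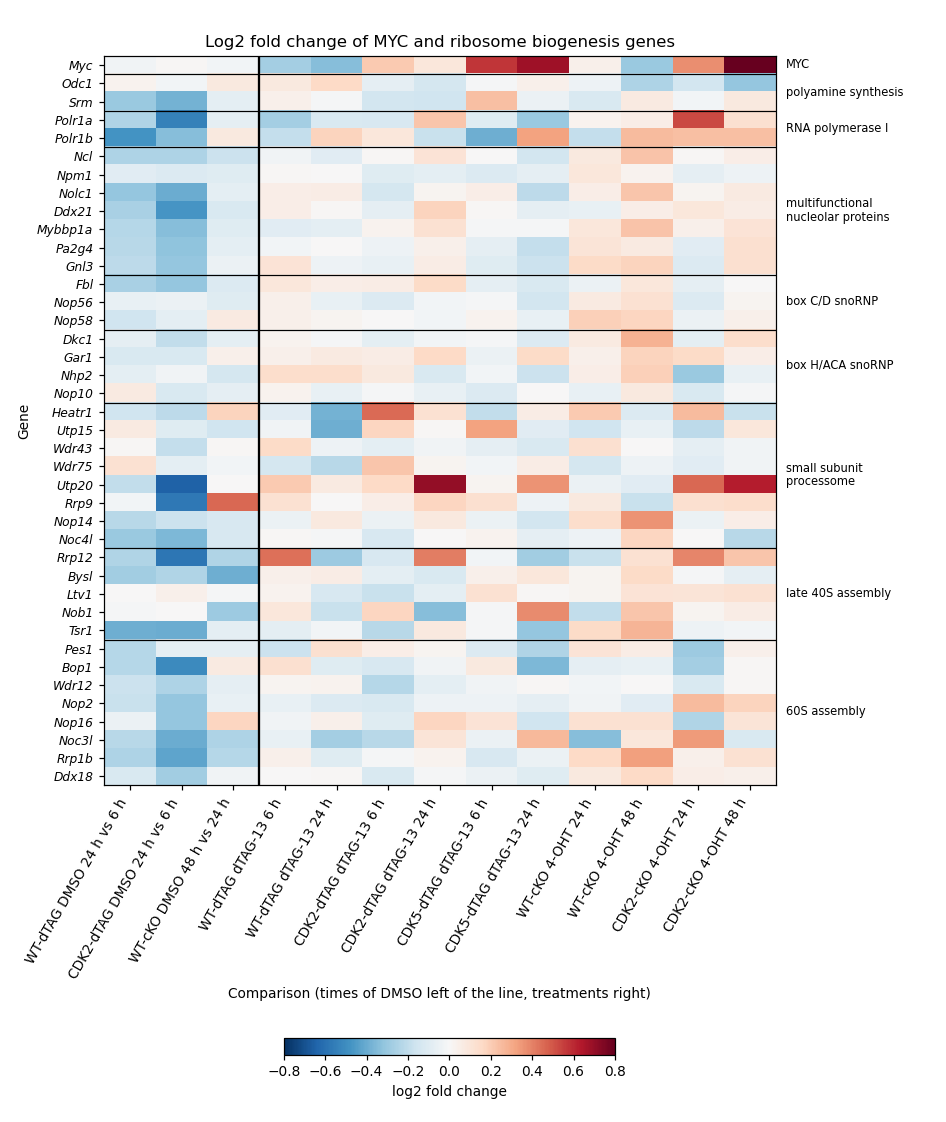
Log2 fold change of the 40 genes (rows, grouped by role) in the 13 comparisons (columns), on a colour scale from -0.8 to 0.8. The first 2 columns are blue in most rows, with members lower after 24 h than after 6 h of DMSO, while the treatment columns right of the line are mixed and Myc is reddest in CDK2-cKO organoids at 48 h, at 0.80.

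Time in DMSO was the comparison in which most members shared a direction. In WT-dTAG organoids 34 of 40 members were lower after 24 h than after 6 h of DMSO. Their median log2 change of -0.19 is a level 12.4% lower, where the well measured genes had a median of 0.00 and 50.2% of them were lower. In CDK2-dTAG organoids 38 of 40 were lower, with a median of -0.26, or 16.7%, against -0.02 in the well measured genes. In WT-cKO organoids, where the times were 48 and 24 h, 31 of 40 were lower, with a median of -0.07, or 4.99%. The same 33 members were lower in both degron genotypes, that is 33 of 40, where 34.8% of the well measured genes were. In all 3 genotypes 26 members were lower, that is 26 of 40, where 19.6% of the well measured genes were. The 3 comparisons share no sample with each other. No member passed FDR p under 0.05, where 0.0803% of all genes did in WT-dTAG, 0.0361% in CDK2-dTAG and 0% in WT-cKO.

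The genes at the front of the pathway did not all lie below 0 in these time comparisons. Myc (GRCm38 chromosome 15, 61985391 to 61990374, plus strand) was listed in the authors' deposited table at -0.03 in WT-dTAG (95% interval -0.61 to 0.56), 0.01 in CDK2-dTAG (-0.67 to 0.68) and -0.02 in WT-cKO organoids (-0.63 to 0.59). Its own transcript was thus near 0 where those of the other genes were mostly below it. Each of these intervals also includes the median of the members, so Myc cannot be told apart from them. For polyamine synthesis, Odc1, the ornithine decarboxylase at its first step, was given values of 0.03, -0.02 and 0.08 by the authors' deposited table. Srm, the spermidine synthase, had -0.30, -0.38 and -0.08 in the authors' deposited table, lower in each genotype. Both large subunits of RNA polymerase I were below 0 in the degron arm, each with unadjusted p above 0.05 in the authors' deposited table. The authors' deposited table gave Polr1a, the largest subunit, -0.24 in WT-dTAG, -0.54 in CDK2-dTAG and -0.07 in WT-cKO. Polr1b, the next largest, had -0.48, -0.34 and 0.08 in the authors' deposited table, and -0.48 is the lowest member value of WT-dTAG.

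The 7 multifunctional nucleolar proteins were lower in all 3 genotypes, with medians of -0.23, -0.32 and -0.10. Ddx21, an RNA helicase of the nucleolus, was listed in CDK2-dTAG at -0.47 with unadjusted p = 0.0207 and FDR p = 0.991 in the authors' deposited table. Pa2g4, a gene for a proliferation-linked protein, was at -0.32 there with unadjusted p = 0.0464 in the authors' deposited table. In WT-dTAG the authors' deposited table gave these 2 genes -0.26 and -0.22, with unadjusted p above 0.05. Nolc1, a chaperone of small nucleolar ribonucleoproteins, was among the 3 lowest members of WT-dTAG at -0.31 in the authors' deposited table. The abundant nucleolar proteins nucleolin (Ncl) and nucleophosmin (Npm1) differed in size: the authors' deposited table gave Ncl -0.25, -0.25 and -0.17 and Npm1 -0.09, -0.11 and -0.10.

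Next come the proteins that modify ribosomal RNA. The box C/D proteins, which guide methylation, had medians of -0.16 in WT-dTAG, -0.08 in CDK2-dTAG and -0.10 in WT-cKO. Fbl, their methyltransferase fibrillarin, was the lowest of these 3 genes in each genotype, at -0.26, -0.31 and -0.11 in the authors' deposited table. The box H/ACA proteins, which turn uridine into pseudouridine, had medians of -0.08, -0.12 and -0.07. Nop10, a small subunit of that complex, was among the 3 highest members of WT-dTAG at 0.07 in the authors' deposited table.

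In the assembly of the small subunit the values were wider. The 8 genes of the small subunit processome, the particle that holds the early precursor, had medians of -0.09 in WT-dTAG, -0.20 in CDK2-dTAG and -0.01 in WT-cKO. Utp20, a very large protein of this particle (GRCm38 chromosome 10, 88746607 to 88826804, minus strand), was the lowest member of CDK2-dTAG at -0.65 in the authors' deposited table, with an interval of -1.54 to 0.24. Rrp9, a component of the U3 small nucleolar ribonucleoprotein, stood there at -0.57 with unadjusted p = 0.0321 in the authors' deposited table. Rrp9 had no shared direction, since the authors' deposited table gave it -0.02 in WT-dTAG and 0.46 in WT-cKO, the highest member value of that comparison. Wdr75 and Utp15, WD-repeat proteins of the same particle, were the highest members of WT-dTAG at 0.12 and 0.07 in the authors' deposited table, and Heatr1 with the value 0.18 was second in WT-cKO.

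The 5 late 40S factors had medians of -0.24, -0.24 and -0.24 in WT-dTAG, CDK2-dTAG and WT-cKO. Tsr1, which in yeast sits on immature small subunits that cannot yet translate (GRCm38 chromosome 11, 74898071 to 74909342, plus strand), was listed at -0.39 in WT-dTAG with unadjusted p = 0.0453 and FDR p = 0.989 in the authors' deposited table. It stood at -0.40 in CDK2-dTAG and -0.08 in WT-cKO in the authors' deposited table. The last 500 bases of Tsr1 overlap an exon of Srr on the opposite strand. The same holds for Bysl (Ccnd3), Bop1 (Mroh1), Heatr1 (Lgals8), Nhp2 (Rmnd5b), Dkc1 (Mpp1), Nop56 (Idh3b) and Mybbp1a (Spns2). The sources used here do not say whether strand was used in counting, so reads of these 8 genes may include those of their neighbours. The authors' deposited table gave Rrp12, in yeast a factor in the export of pre-ribosomes, -0.58 in CDK2-dTAG. In WT-cKO it held the lowest values in Bysl, a processing factor, at -0.39, Nob1, the nuclease of the last cut of 18S RNA, at -0.29, and Noc3l of the 60S group at -0.25. Ltv1, in yeast a factor of 40S export and assembly, was the highest member of CDK2-dTAG at 0.04 in the authors' deposited table, followed by Myc at 0.01 and Nob1 at -0.00.

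The 8 genes of 60S assembly had medians of -0.20, -0.31 and -0.07. Bop1, which forms a complex with Pes1 and Wdr12 in large subunit assembly, was at -0.51 in CDK2-dTAG with unadjusted p = 0.0448 in the authors' deposited table. For Bop1 WT-dTAG gave -0.23 and WT-cKO 0.07 in the authors' deposited table. Its partners stood at -0.23 and -0.07 (Pes1) and at -0.17 and -0.25 (Wdr12) in WT-dTAG and CDK2-dTAG in the authors' deposited table. Nop16 was the other member near the top of WT-cKO, at 0.17 in the authors' deposited table.

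**Figure D2:**
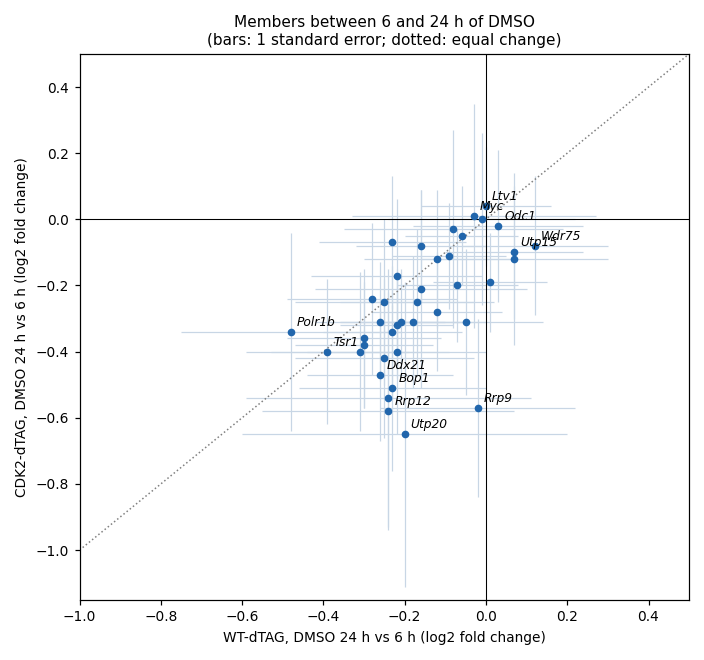
Log2 fold change of each of the 40 genes between 6 and 24 h of DMSO in WT-dTAG (x axis) and CDK2-dTAG organoids (y axis), with bars of 1 standard error. Of the 40 points 33 lie in the lower left part, below 0 on both axes, with Polr1b farthest left at -0.48 and Utp20 lowest at -0.65, and Myc lies near the origin.

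In number, 1 member (Tsr1) had an unadjusted p under 0.05 in WT-dTAG, where 3.28% of all genes did. In CDK2-dTAG it was 4 members of 40 (Ddx21, Pa2g4, Rrp9 and Bop1), against 2.72% of all genes. In WT-cKO it was 0 members, against 1.42%. The members thus lay below 0 together by amounts that were mostly within the error of a single gene. Across the 40 members the changes in WT-dTAG and CDK2-dTAG had Pearson r = 0.59 and Spearman rho = 0.65, and across the well measured genes r = 0.46 and rho = 0.44. These are descriptions across genes, which are not independent. The difference between the genotypes in this time change, a comparison added after the table was seen, had a median of -0.09 over the members, with 30 of 40 lower in CDK2-dTAG. Its lowest members were Rrp9 (-0.55), Utp20 (-0.44) and Rrp12 (-0.34), and its highest Pes1 (0.15), Polr1b (0.14) and Nop58 (0.08). None of the 40 had an unadjusted p under 0.05 in it (0.984% of all genes did), and 0% of all genes passed the adjusted p.

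The other genes of the pathway lay the same way. Of 177 such genes with values, 121 were lower in WT-dTAG, 127 in CDK2-dTAG and 117 in WT-cKO, with medians of -0.08, -0.12 and -0.04, and 0 passed FDR p under 0.05. At unadjusted p under 0.05 stood 3 higher and 11 lower in WT-dTAG, 1 and 8 in CDK2-dTAG, and 0 and 2 in WT-cKO. Over all genes the shares in either direction were 3.28%, 2.72% and 1.42%. The other small subunit processome genes were lower in 33, 37 and 30 of 40, with 4, 1 and 0 of them at unadjusted p under 0.05. In WT-dTAG the lowest p-values among these were those of Pwp2, a processome protein, at -0.75 (FDR p = 0.377), of Utp4 at -0.41 and of the RNA acetyltransferase gene Nat10 at -0.47 in the authors' deposited table. Tbl3 stood at -0.50 in CDK2-dTAG in the authors' deposited table. The other 60S genes were lower in 36, 32 and 35 of 49, among them Znhit6 (-0.54) and Las1l (-0.40) in WT-dTAG, Ftsj3 (-0.49) in CDK2-dTAG and Nop53 (-0.33) in WT-cKO in the authors' deposited table. The other late 40S genes were lower in 4, 5 and 3 of 7. For the other RNA polymerase I genes it was 9, 9 and 10 of 19, with medians of 0.00, 0.03 and -0.02, so this list was split. Polr1a and Polr1b were below 0 in the degron arm, but within their errors.

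MYC's partners and antagonists were lower in 8 of 15 in WT-dTAG, 11 of 15 in CDK2-dTAG and 11 of 15 in WT-cKO. The partner gene Max stood at -0.40 in WT-dTAG with unadjusted p = 0.0305, and at -0.56 in CDK2-dTAG with unadjusted p = 0.00646, in the authors' deposited table. Also in CDK2-dTAG the authors' deposited table gave the antagonist Mxd4 -0.84 and the cofactor Ruvbl1 -0.44, and in WT-dTAG it gave Mlxip -0.69. Of 47 other genes known to be induced by MYC, 31, 33 and 28 were lower. They did not share 1 direction: the transferrin receptor gene Tfrc was listed at 0.53 in WT-dTAG (unadjusted p = 4.26e-04) and 0.43 in CDK2-dTAG, and the lactate dehydrogenase gene Ldha at 0.48 in WT-dTAG, in the authors' deposited table. Lower were Ctps (-0.47) in WT-dTAG, Slc19a1 (-0.47) and Cdc25a (-0.43) in CDK2-dTAG, and the telomerase gene Tert (-2.45) in WT-cKO, in the authors' deposited table. The value of Tert had a large standard error of 0.99.

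Some lists that mark cell state lay below 0 beside the members in time. Of 20 genes of mitosis and replication, 16 were lower in WT-dTAG, 18 in CDK2-dTAG and 17 in WT-cKO, with medians of -0.12, -0.13 and -0.13. Stem cell markers were lower in 10 and 12 of 14 in the degron arm (medians -0.37 and -0.19), and stood at 0.08 in WT-cKO. Enterocyte markers had medians of -0.01, -0.07 and 0.51. The 44 cytosolic ribosomal proteins, the products that the assembly genes build into ribosomes, stood at 0.02, 0.11 and 0.02 at the median, with 31, 42 and 28 of them higher. The part of these lists in the members' values was not tested.

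Degradation of CDK2, a kinase of the cell cycle, was read against the wild type given the same dTAG-13. In WT-dTAG organoids, which lack a tagged kinase, 24 of 40 members were higher than in DMSO at 6 h and 16 at 24 h, with medians of 0.03 and -0.01. At 6 h the members with the highest values were Rrp12 (0.44), Utp20 (0.21) and Wdr43 (0.15), and the lowest Myc (-0.27), Polr1a (-0.27) and Polr1b (-0.19), in the authors' deposited table. At 24 h Polr1b (0.18), Odc1 (0.16) and the box H/ACA gene Nhp2 (0.14) were highest, and Utp15 (-0.39), Heatr1 (-0.38) and Myc (-0.34) lowest, in the authors' deposited table. Rrp12, highest at 6 h, stood at -0.29 at 24 h in the authors' deposited table. Utp15 had unadjusted p = 0.027 and FDR p = 1 in the authors' deposited table. It was the 1 member of 40 at unadjusted p under 0.05 in WT-dTAG at 24 h, against 1.08% of all genes, with 0 members and 0.799% of all genes at 6 h. At both times 0% of all genes passed FDR p.

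In CDK2-dTAG organoids 15 of 40 members were higher at 6 h (median -0.06) and 23 at 24 h (median 0.02). At 6 h the highest were Heatr1 (0.45), Wdr75 (0.22) and Myc (0.21), and the lowest Wdr12 (-0.23), Tsr1 (-0.22) and Noc3l (-0.22), in the authors' deposited table. Utp20 had the highest member value at 24 h, 0.70 with a 95% interval of -0.10 to 1.51 in the authors' deposited table. Rrp12 (0.41) and Polr1a (0.22) followed it, and Nob1 (-0.34), Polr1b (-0.18) and Srm (-0.16) were lowest, in the authors' deposited table. Myc stood at 0.09 at 24 h (unadjusted p = 0.776) in the authors' deposited table. In the time comparison of this genotype Utp20 and Rrp12 were the 2 lowest members. The 24 h DMSO group is shared by that comparison and this one, so a low value there and a high value here are not independent. At 6 h 0.903% of all genes and 0 members had an unadjusted p under 0.05, at 24 h 1.07% and 0 members, and 0% of all genes passed FDR p at either time. Beside the members, the ribosomal protein genes stood at 0.07 and 0.12 at the median in WT-dTAG at 6 and 24 h (43 and 44 of 44 higher), and at -0.00 and -0.13 in CDK2-dTAG (23 and 44 of 44 lower). Stem cell markers in CDK2-dTAG were higher in 14 of 14 at 24 h, with a median of 0.37. Their part in the members' values was not tested.

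Set against wild type, the members in CDK2-dTAG differed by a median of -0.06 at 6 h (11 of 40 higher) and 0.06 at 24 h (26 of 40 higher), with well measured genes at -0.01 and 0.01. The list's median thus had opposite signs at 6 and 24 h, but both values were small beside the error of a single gene. The median standard error of a member's difference was 0.29 at 6 h and 0.28 at 24 h. The highest differences were Heatr1 (0.54), Myc (0.48) and Wdr75 (0.36) at 6 h, and Rrp12 (0.69), Utp20 (0.63) and Heatr1 (0.50) at 24 h. Lowest were Rrp12 (-0.57), Bop1 (-0.26) and Wdr12 (-0.25) at 6 h, and Polr1b (-0.36), Odc1 (-0.30) and Nhp2 (-0.26) at 24 h. The difference of Utp20 at 24 h had an interval of -0.50 to 1.75. The 24 h DMSO groups also enter the comparisons between times, where Utp20 and Rrp12 were low in CDK2-dTAG. Those values and these are therefore not independent. Myc differed by 0.43 at 24 h, with a standard error of 0.43. No member had an unadjusted p under 0.05 in the difference at 6 or 24 h, where 1.13% and 1.32% of all genes did, and 0% passed the adjusted p.

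In CDK5-dTAG organoids Myc had the highest member value at 6 and 24 h, but it did not pass FDR p. Its median standard error over all comparisons was 0.31, against 0.19 for the middle member. A rank at either end is therefore easier to reach for Myc in any comparison. CDK5 is a kinase of the CDK family studied mostly in the nervous system. Myc was listed at 0.57 at 6 h, 1.49-fold, with an interval of -0.03 to 1.17 and unadjusted p = 0.0618 in the authors' deposited table. At 24 h it was listed at 0.68, 1.60-fold, with an interval of 0.05 to 1.30, unadjusted p = 0.0332 and FDR p = 1 in the authors' deposited table. Of the well measured genes, 1.11% at 6 h and 1.61% at 24 h had a higher value. The other 39 members had medians of -0.02 and -0.07, with 13 and 11 of them higher. After Myc the highest values at 6 h were Utp15 (0.32) and Srm (0.24), and the lowest Polr1b (-0.39), Heatr1 (-0.20) and Rrp1b, a nucleolar protein of the 60S group (-0.13), in the authors' deposited table. At 24 h Nob1 (0.38) and Utp20 (0.36) followed Myc, and Bop1 (-0.36), Tsr1 (-0.31) and Polr1a (-0.30) were lowest, in the authors' deposited table.

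The difference of Myc from WT-dTAG was 0.84 at 6 h (interval 0.00 to 1.69; unadjusted p = 0.0499, adjusted p = 0.998), by a normal test over all genes on the values of the authors' deposited table. At 24 h it was 1.02 (interval 0.15 to 1.88; unadjusted p = 0.0208, adjusted p = 1), by the same test on the authors' deposited table. In both, a value below 0 in the wild type, -0.27 and -0.34 in the authors' deposited table, makes up part of the difference. For the members as a list the medians of the difference were -0.04 and -0.06. Utp15 (0.35) and Srm (0.20) followed Myc at 6 h, with Rrp12 (-0.46), Wdr43 (-0.22) and the GTPase gene Gnl3 (-0.21) lowest. At 24 h it was Nob1 (0.56) and Noc3l (0.53), with Pes1 (-0.36), Nhp2 (-0.31) and Tsr1 (-0.29) lowest. At unadjusted p under 0.05 stood 1 of 40 members, Myc, at each time, against 1.06% of all genes at 6 h and 2.05% at 24 h. In the CDK5-dTAG values themselves 0 members did at 6 h (0.952% of all genes) and 1 at 24 h (1.99%), and 0% of all genes passed FDR p. Ribosomal protein genes were lower in 43 and 37 of 44 in CDK5-dTAG, with medians of -0.08 and -0.07. In the difference from WT-dTAG at 24 h, Paneth cell markers had a median of -0.46 (9 of 10 lower), enteroendocrine cell markers -0.27 (9 of 12 lower) and ribosomal protein genes -0.21 (43 of 44 lower). Tuft cell markers had a median of 1.73 there (7 of 10 higher, 2 at unadjusted p under 0.05). They were poorly measured, with values from -4.33 to 6.12 and a median standard error of 2.33. The part of these lists in the members' values was not tested.

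**Figure D3:**
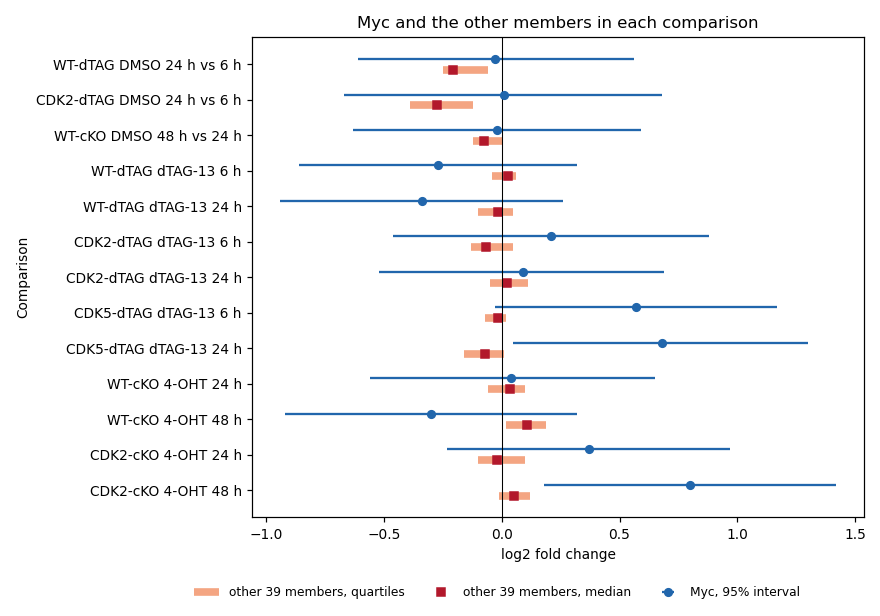
Log2 fold change of Myc with its 95% interval (blue) in each of the 13 comparisons, beside the median (square) and quartiles (bar) of the other 39 members. Myc lies right of the others in CDK5-dTAG organoids, at 0.57 and 0.68, and in CDK2-cKO organoids at 48 h, at 0.80, where the medians of the others lie between -0.07 and 0.05.

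In the knockout arm the wild type itself was given 4-OHT, and 24 of 40 members were higher than in DMSO at 24 h and 29 at 48 h, with medians of 0.04 and 0.10. The 48 h median is the highest of the 10 treatment comparisons. At 48 h all 9 genes of the box C/D, box H/ACA and RNA polymerase I classes were above 0, from 0.05 in Polr1a to 0.28 in Dkc1 in the authors' deposited table. So were the 7 multifunctional nucleolar genes, from 0.03 in Npm1 to 0.23 in Ncl and Mybbp1a, in the authors' deposited table. The 5 late 40S genes were too, from 0.11 in Ltv1 to 0.27 in Tsr1 in the authors' deposited table. Members below 0 were in the other classes. At 24 h Heatr1 (0.21), Nop58 (0.19) and Rrp1b (0.16) were highest and Noc3l (-0.34), Nob1 (-0.20) and Polr1b (-0.19) lowest in the authors' deposited table. Myc stood at 0.04 at 24 h (unadjusted p = 0.894) in the authors' deposited table. After 48 h, the authors' deposited table held its highest values in Nop14, a processome protein (0.36), Rrp1b (0.33) and Dkc1, the pseudouridine synthase dyskerin (0.28). Its lowest were Myc (-0.30), Odc1 (-0.25) and Rrp9 (-0.18). Myc and Odc1 thus lay opposite to most members. No member had an unadjusted p under 0.05 at 24 h (2.98% of all genes) or 48 h (1.83%), and 0.0642% and 0% of all genes passed FDR p.

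The 48 h DMSO group of this genotype also entered the comparison of 48 with 24 h of DMSO, in which 31 of 40 members were lower, so the 2 results are not independent. Marker lists stood away from 0 in the same comparisons. Enterocyte markers, at 0.51 between the times of DMSO, stood at a median of -0.84 after 48 h of 4-OHT with 17 of 18 lower, and genes of mitosis and replication at 0.11 with 17 of 20 higher. At 24 h all 20 spermatid and sperm transcripts were higher, by a median of 5.43, with 7 at FDR p under 0.05. The part of these lists in the members' values was not tested.

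CDK2 knockout was read in CDK2-cKO organoids on 4-OHT. At 24 h 18 of 40 members were higher (median -0.01) and at 48 h 28 (median 0.05). At 24 h Polr1a (0.53), Utp20 (0.46) and Rrp12 (0.39) were highest and Nhp2 (-0.30), Pes1 (-0.29) and Bop1 (-0.27) lowest in the authors' deposited table. At 48 h Myc was highest at 0.80, 1.74-fold, with an interval of 0.18 to 1.42, unadjusted p = 0.0117 and FDR p = 0.996 in the authors' deposited table. Of the well measured genes 0.619% had a higher value. Utp20 (0.63) and Polr1b (0.24) came next, and Odc1 (-0.31), Noc4l, a processome protein (-0.22), and Heatr1 (-0.18) were lowest, in the authors' deposited table. Odc1, a gene that MYC is known to induce, stood at -0.25 in WT-cKO at the same time in the authors' deposited table, so its difference between the genotypes was -0.05 (interval -0.63 to 0.52). At 24 h Myc stood at 0.37 in CDK2-cKO (unadjusted p = 0.223) in the authors' deposited table. With CDK2 degraded in the degron arm, Myc was at 0.21 at 6 h and 0.09 at 24 h in the authors' deposited table. The high value at 48 h thus had no counterpart of its size there.

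Against WT-cKO, Myc differed by 0.33 at 24 h (interval -0.52 to 1.18). At 48 h the difference was 1.10 (interval 0.22 to 1.98; unadjusted p = 0.0138, adjusted p = 1), by the normal test over all genes on the values of the authors' deposited table. Of the well measured genes 0.399% had a higher difference. The wild-type value of -0.30 in the authors' deposited table is part of it. The members as a list differed by a median of -0.04 at 24 h and -0.06 at 48 h, with 16 and 14 of 40 higher. At 24 h Noc3l, whose yeast counterpart acts in 60S assembly and transport (GRCm38 chromosome 19, 38788128 to 38819237, minus strand), had the highest difference, 0.68 (interval 0.05 to 1.31; unadjusted p = 0.0337, adjusted p = 0.995 by the same normal test), from 0.34 in CDK2-cKO and -0.34 in WT-cKO in the authors' deposited table. Rrp12 (0.57) and Utp20 (0.52) followed, and Pes1 (-0.40), Nop16 (-0.36) and Nhp2 (-0.36) were lowest. At 48 h Utp20 (0.73) and Rrp9 (0.31) followed Myc, and Noc4l (-0.39), Nop14 (-0.31) and Tsr1 (-0.29) were lowest.

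Counts in this arm were low too. In CDK2-cKO 0 of 40 members had an unadjusted p under 0.05 at 24 h (1.3% of all genes) and 1 of 40, Myc, at 48 h (2.21%), and 0% and 0.0241% of all genes passed FDR p. In the difference from WT-cKO it was 1 member at 24 h (1.78% of all genes) and 1 at 48 h (1.27%), and no gene passed the adjusted p. Beside the members, stem cell markers in CDK2-cKO stood at medians of 0.30 and 0.31, mitosis and replication genes at 0.01 and 0.12, and enterocyte markers at -0.17 and -0.44. Ribosomal protein genes stood at -0.15 and -0.10, with 44 of 44 lower at both times, while the assembly genes were spread around 0. In the difference from WT-cKO the spermatid and sperm transcripts were lower in 20 of 20 at 24 h (median -4.24, 11 at unadjusted p under 0.05) and in 18 of 20 at 48 h (median -1.81). The rise of this list in WT-cKO at 24 h, given above, is part of the 24 h difference. The median standard errors of these differences were large, 1.95 at 24 h and 1.83 at 48 h. At 48 h 17 of 18 enterocyte markers were higher, with a median difference of 0.30, and ribosomal protein genes stood at -0.14 and -0.11 at 24 and 48 h. The part of these lists in the members' values was not tested.

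Utp20 is the member with the widest range, from -0.65 to 0.70 in the authors' deposited table. It was among the 3 highest members in 5 of the 10 treatment comparisons, namely WT-dTAG at 6 h, CDK2-dTAG at 24 h, CDK5-dTAG at 24 h and CDK2-cKO at 24 and 48 h. It also has the largest standard error of the 40, so a rank at either end is easier to reach for it, and each of its 13 intervals includes 0. Npm1 and Nop10 had the narrowest ranges, each spanning 0.20. In the 10 treatment comparisons 6 of 400 values lay beyond 0.5 on either side, and they belong to 3 genes, Myc, Utp20 and Polr1a. Over all 13 comparisons 8 of 520 values (1.54%) had an unadjusted p under 0.05, against 1.73% over all genes and 2.73% over well measured genes.

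**Figure D4:**
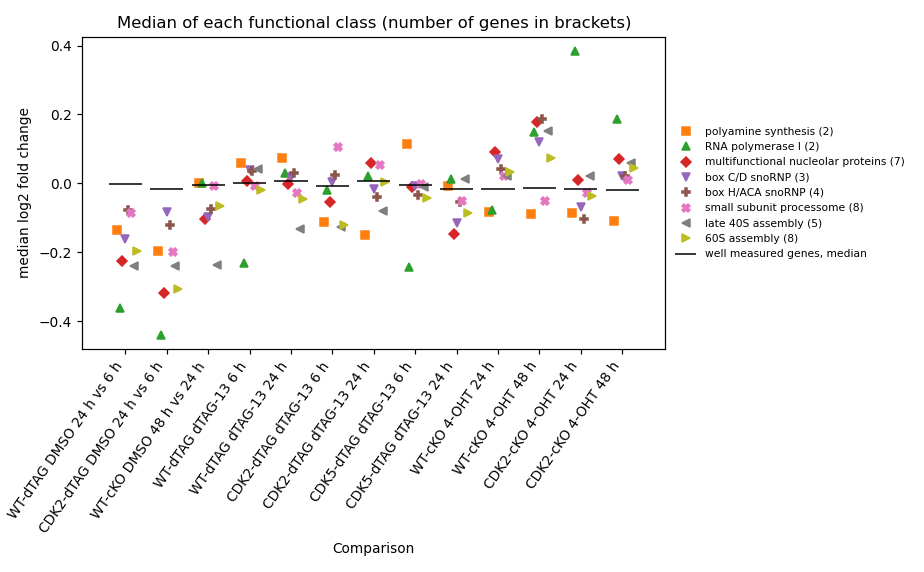
Median log2 fold change of each functional class of members other than MYC (symbols, number of genes in brackets) in the 13 comparisons, with the median of the well measured genes as a black line. The classes lie together below the line in the first 2 comparisons, and RNA polymerase I, a class of 2 genes, is farthest from it in several, from -0.44 to 0.38.

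The other pathway genes showed few values past an unadjusted p of 0.05 under treatment, and none past FDR p. The number of the 177 genes higher was 97 and 91 in WT-dTAG, 72 and 74 in CDK2-dTAG and 81 and 69 in CDK5-dTAG at 6 and 24 h. At 24 and 48 h of 4-OHT it was 94 and 116 in WT-cKO, and 73 and 104 in CDK2-cKO. In the degron wild type at 24 h the authors' deposited table gave Pwp2 0.56, Znhit6 0.43 and Urb2 -0.84. Pwp2 and Znhit6 were low in the time comparison that shares this DMSO group. In CDK2-dTAG at 6 h these were the processome genes Ddx52 (-0.42) and Dhx37 (-1.10) and the MYC antagonist Mxd1 (-0.87) in the authors' deposited table. In CDK5-dTAG the authors' deposited table gave Dimt1 -1.30 at 6 h, and at 24 h the polymerase I subunit gene Cd3eap -0.40, Sbds 0.32 and Zbtb17 -0.64. In WT-cKO it gave Senp3 -0.86 at 24 h and, at 48 h, Riok3 -0.39 and Tert 2.23, with all 3 values from the authors' deposited table. The Tert value had a standard error of 1.00. It shares its 48 h DMSO group with the time comparison in which Tert was low, so those values are not independent. In CDK2-cKO at 24 h the values were -0.55 for Lsg1, which in yeast acts in the release of the 60S export adaptor, 0.47 for Tex10 and 0.38 for Ppat in the authors' deposited table. After 48 h, the authors' deposited table listed Senp3 at 1.36, Ddx24 at 0.33, Tert at 1.44, Mthfd2 at -0.43 and Ldha at -0.39. Of the MYC-induced genes among these, Tert was above 0, with a standard error of 0.73, and Mthfd2 and Ldha were below 0. These genes were named by their p-values, and their relation to Myc was not tested. In the difference from WT-cKO at 48 h, 21 of the 47 other MYC-induced genes were higher, with a median of -0.01.

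The E-box split of the promoters showed no clear gap in time. In WT-dTAG the 7 members with CACGTG had a median of -0.20 and the 27 with a window and no match -0.16. The medians were -0.31 and -0.25 in CDK2-dTAG and -0.06 and -0.08 in WT-cKO.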

How the data were processed

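RNA of 60 duodenum organoid samples was sequenced from the 3′ end, per the labels' protocols (QuantSeq, forward), and quantified with Salmon, per the submitters' processing notes. The sources do not give its version, the build, the normalization, filters or the test that produced the values. Per the file headers, the authors' deposited table of 13 comparisons has 5 measures for every gene: the log2 fold change, the fold change as a ratio, and p-values unadjusted, FDR-adjusted and Bonferroni-adjusted. It holds no values per sample, so depth is unknown and no counting interval can be given. The table's columns carry text for missing values and are recorded under a general unit.

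Standard errors were derived by dividing each absolute log2 fold change by the normal quantile matching its two-sided p-value, which assumes a Wald-type test. Intervals are 95% normal intervals. Differences between genotypes treated the 2 errors as independent, with a two-sided normal test and a Benjamini-Hochberg adjustment over 24905 genes. The test was run on simulated data whose noise was drawn from these same errors, so that run cannot show whether the errors are right. Over the differences 0.984% to 2.05% of all genes had an unadjusted p under 0.05. Uniform p-values would give 5%, so the derived errors and intervals may be too wide. Well measured genes have a median standard error not above 0.5, a limit chosen after the table was seen. The members and the gene lists were chosen with earlier results of these data known, and no p was adjusted over a list. Named were Myc, the 3 highest and 3 lowest members per comparison, members at unadjusted p under 0.05, and up to 3 other pathway genes per list and comparison at that limit; other members are named as examples of their class, chosen after their values were seen. Promoters were to be printed for Myc and for members with an E-box and such a p under treatment; this gave none, and the 7 E-boxes are shown instead. Alternatives were another adjustment, Bonferroni, centring, weighting, subsets of members and a t quantile. Positions are from GENCODE M21 and promoters from RefSeq. Python 3.11.15, pandas 2.3.3 and scipy 1.17.1 were used.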

Additional observations from a re-analysis of the deposited data

How the results depend on the processing

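The 20 medians over members were recomputed in 5 ways: well measured members, dedicated assembly members, without Myc (added after seeing the data), weighted by error, and centred on the well measured genes. The largest shift was 0.04, and 1 median changed sign, that of CDK2-cKO at 24 h, from -0.01 to 0.00 when centred. Under Bonferroni 0 members passed in every comparison, as under FDR p. With the p-values of the authors' deposited table adjusted over the well measured genes alone, 0 members passed in WT-dTAG between times of DMSO (smallest adjusted p = 0.786), CDK2-dTAG between times of DMSO (0.732), WT-dTAG at 24 h (1), CDK5-dTAG at 24 h (1) and CDK2-cKO at 48 h (1), where 1, 4, 1, 1 and 1 had an unadjusted p under 0.05. With standard errors from a t quantile with 4 degrees of freedom, compared on 8, and the values of the authors' deposited table, the difference of Myc from wild type had unadjusted p = 0.0418 (CDK5-dTAG at 6 h), 0.0166 (CDK5-dTAG at 24 h) and 0.0106 (CDK2-cKO at 48 h), and no adjusted p passed. No paired analysis was possible because the table holds comparisons and no values per sample; for the same reason leaving out a replicate was not run. The median interval over members reached 0.37 to 0.42 to either side on the log2 scale, and members with smaller or larger standard errors have narrower or wider ones.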
